A study of Mus musculus with 17 samples.

Results

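The mitochondrial ribosomal protein genes were the 78 protein-coding genes whose symbol starts with Mrpl or Mrps followed by a digit, of 21798 genes in the table. By symbol, 49 belonged to the large subunit and 29 to the small subunit, and all 78 passed the low-value filter used for testing. The subunit follows the symbol, although the proteins of Mrps18a and Mrps30 sit in the large subunit. RNA was sequenced from the apex of the left ventricle of male C57Bl6/J mice, operated at 7 to 8 weeks of age and killed 3 weeks later. Transverse aortic constriction (TAC) narrows the aorta and loads the left ventricle with pressure, and Sham mice had the operation without the constriction. From 1 week after surgery the mice were gavaged with 6 doses over 2 weeks of either saline (vehicle, Veh) or 50 μg/kg of 29P, an orally available prodrug of an RGD mimetic directed at the integrin αvβ3. The 17 libraries came from separate mice, of which 5 were in the Sham Veh group, 6 in TAC 29P and 3 each in TAC Veh and Sham 29P. All groups were of the same strain and sex and carried no transgene.

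The mitochondrial ribosome (mitoribosome) translates the messages of the mitochondrial genome, which in mammals encode core subunits of the respiratory chain and of ATP synthase. Its ribosomal RNAs come from the mitochondrial genome, whereas every protein of the particle is encoded in the nucleus, made in the cytosol and imported. Some of these proteins descend from bacterial ribosomal proteins and others are found only in mitochondria. The heart is dense in mitochondria, and loss of a mitoribosomal protein can cause inherited cardiomyopathy in people.

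Expression was given as CPM (counts-per-million), the counts of a gene scaled to the same total of assigned reads in every library. Because CPM are shares of a total, each comparison is given with the deposited totals and again after division by a trimmed mean of M-values (TMM) factor, which sets the typical gene of a library level with that of the others. Differences were tested with limma on log2 CPM over 16218 genes, and a member was called at a Benjamini-Hochberg adjusted p of 0.05 or less over all of those genes. A median of all genes is printed beside each median of the members. The p-values measure the spread between mice, and in bulk tissue fewer cells of a type and less RNA per cell cannot be told apart.

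Depth, estimated from the most common low CPM value taken as 1 read, was 14.2 M to 23.8 M reads per library (M for mega). The 16 mitochondrially encoded genes took 33.5 ± 3.64% of all CPM in Sham Veh, 35.6 ± 3.83% in Sham 29P, 26.1 ± 2.22% in TAC Veh and 27.3 ± 1.69% in TAC 29P (mean ± SD), and the TMM factors were 0.762 to 0.974 in Sham libraries and 1.05 to 1.21 in TAC libraries. The 8 heart muscle markers Myl2, Myl3, Myh6, Tnni3, Tnnt2, Actc1, Pln and Ryr2 summed to between 36406 and 53205 CPM in every library. The atrial light chain Myl7 was present at 895 CPM in Sham Veh mouse S19, 723 CPM in Sham Veh mouse S20 and 335 CPM in TAC 29P mouse S18, and at no more than 1.002 CPM in the others. The Sham 29P mouse S14 had the shallowest library and was the lowest of all 17 for 48 of the 78 members.

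The members were spread over 17 chromosomes, and 19 of them (24.4%) had the start of another coding gene within 1000 bases on the opposite strand, against 7.23% of 21951 coding genes. Promoter windows from RefSeq, which reach from 250 bases before to 50 after a gene's start on GRCm38.p6, were matched for 69 of the 78 members. They were searched on both strands for motifs of 4 regulators known for mitochondrial genes: GCGCANGCG for NRF1, CCGGAAGT for the ETS family to which NRF2/GABP belongs, AAGATGGCG for YY1 and TCAAGGTCA for the oestrogen-related receptors. The NRF1 motif was present in 16 matched members (23.2%) against 7.03% of 27025 symbols, the ETS motif in 12 (17.4%) against 4.31% and the YY1 motif in 8 (11.6%) against 1.64%. The receptor motif was found in 0 of the 69 members and in 0.466% of all symbols. At least 1 of the NRF1, ETS and YY1 motifs was present in 34 members (49.3%) against 11.9%. Nuclear oxidative phosphorylation genes and cytosolic ribosomal protein genes also held these motifs more often than all symbols. The NRF1 motif was present in 29.4% of the former and the ETS motif in 19.4% of the latter. The member windows were rich in CG dinucleotides, with a median of 21 against 8 over all windows, and the motif shares were not matched for this. Such a match describes the letters and is not evidence of binding.

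The windows of 7 members described in the results are shown around their motif, 5′ to 3′ on the strand of the gene and with the motif in capitals. The NRF1 motif is shown in Mrps21, which had the highest level per length of all members, in Mrpl12, and in Mrpl30, which held it 2 times. The ETS motif is shown in Mrpl18, Mrps18c and Mrpl52, and the YY1 motif in Mrpl42, the member with the lowest adjusted p among the falls after TAC with the deposited totals. The windows lie at chr3:95871545-95871644 (minus strand, Mrps21), chr11:120484517-120484616 (plus, Mrpl12), chr1:37890335-37890434 (plus, Mrpl30), chr17:12916313-12916341 (minus, Mrpl18), chr5:100798592-100798620 (plus, Mrps18c), chr14:54426900-54426928 (plus, Mrpl52) and chr10:95501904-95501932 (minus, Mrpl42).
Mrps21: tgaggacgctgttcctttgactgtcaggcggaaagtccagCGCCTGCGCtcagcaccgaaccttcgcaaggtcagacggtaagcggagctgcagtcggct
Mrpl12: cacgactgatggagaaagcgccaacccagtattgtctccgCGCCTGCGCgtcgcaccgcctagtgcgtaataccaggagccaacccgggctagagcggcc
Mrpl30: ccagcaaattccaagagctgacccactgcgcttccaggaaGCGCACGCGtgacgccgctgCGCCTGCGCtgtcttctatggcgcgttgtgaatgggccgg
Mrpl18: actgaaaacgCCGGAAGTagggggctgcg
Mrps18c: gggtcacgtgACTTCCGGcccgggaagcg
Mrpl52: ggccacgcccACTTCCGGttcccttgctc
Mrpl42: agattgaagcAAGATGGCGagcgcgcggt

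Levels of the members differed widely. Per kilobase of exon, the mean over all libraries was highest for Mrps21, the homologue of bacterial S21, at 99.7 CPM per kb, followed by Mrps23 at 80.1, the stalk protein gene Mrpl12 at 67.7 and Mrpl18 at 65.3. The lowest levels per kilobase were those of Mrpl23 at 0.264 CPM per kb, Mrps10 at 1.49, Mrps5 at 3.12 and Mrpl48 at 4.02, and the median member stood at 14.6 CPM per kb. The rank of Mrpl23 is uncertain because its processed copy Mrpl23-ps1 was counted at a mean of 33.7 CPM, when Mrpl23 itself was at 1.29 CPM. Reads may also have been split between Mrpl48 and its copy Mrpl48-ps (11.5 CPM), Mrps36 and Mrps36-ps1 (8.10 CPM), and Mrpl27 and Mrpl27-ps (4.38 CPM). These are copies by their symbols, and their sequences were not compared. Exons of 33 members overlapped those of another gene, on the opposite strand for 28 of them. The paper lists a strand specificity reagent in first-strand synthesis. Whether strand was used in counting is not given in the sources used here.

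The first comparison asked how pressure overload without the drug changed the members. As shares of all reads, the members in TAC Veh hearts stayed near their Sham Veh level when most other genes took larger shares. The summed level of the 78 members was 3299 ± 155 CPM in Sham Veh (3193 to 3572 CPM) and 3213 ± 90.4 CPM in TAC Veh (3137 to 3313 CPM), a ratio of 0.974 with overlapping libraries. After TMM scaling the sums were 3686 ± 316 CPM and 2849 ± 194 CPM, a ratio of 0.773, and every TAC Veh library (2639 to 3020 CPM) lay below every Sham Veh library (3315 to 4107 CPM). The authors had left out a TAC Veh library because it clustered with Sham. That selection favours a separation of TAC Veh from Sham Veh in all results of this comparison, and its size was not tested. The ratio with TMM factors was 0.769 for the large subunit and 0.781 for the small subunit.

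**Figure D1:**
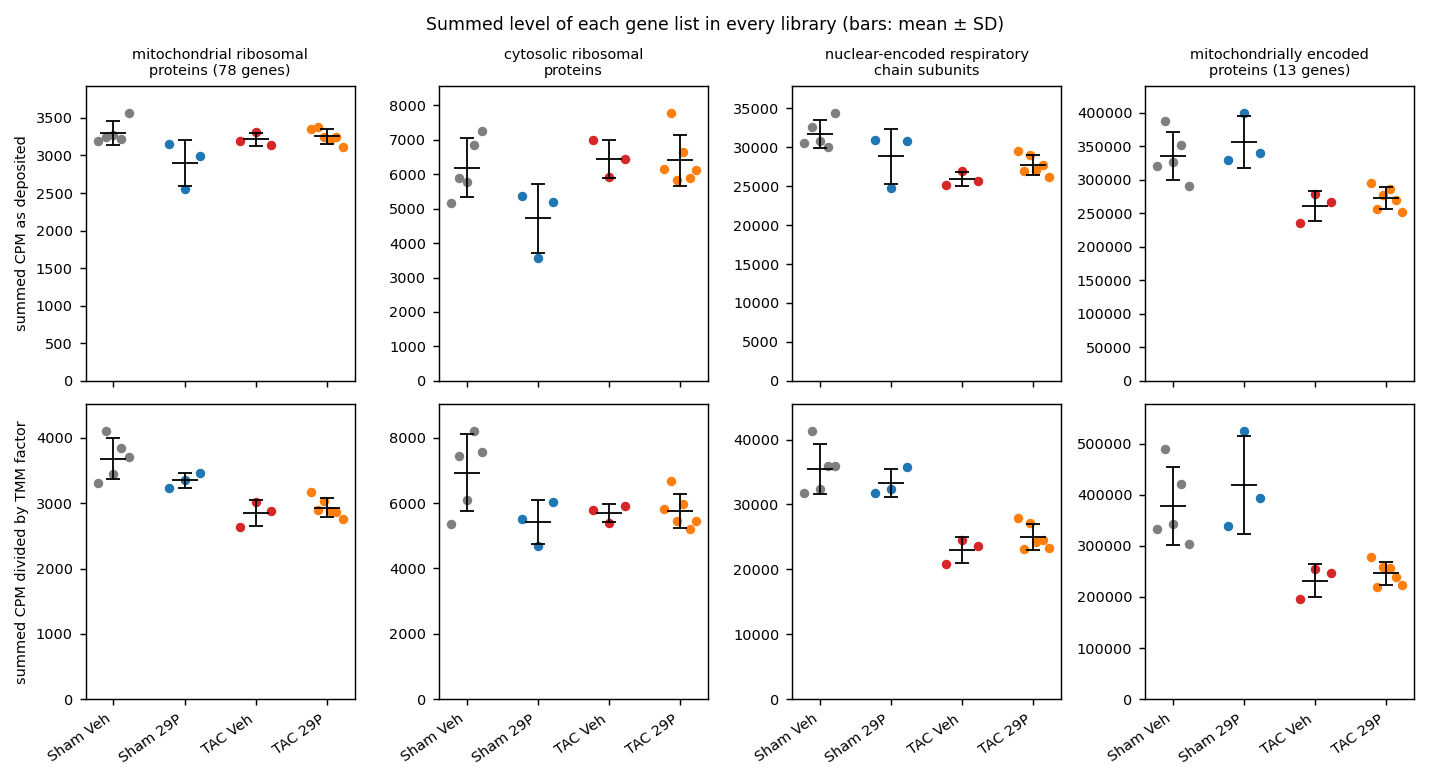
Summed CPM of 4 gene lists in each library, by group, as deposited and after division by the TMM factor (points, libraries; bars, mean ± SD). For the mitoribosomal proteins the TAC Veh and Sham Veh libraries overlap as deposited, whereas with TMM factors the TAC Veh points (2639 to 3020 CPM) lie below all Sham Veh points (3315 to 4107 CPM).

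With the deposited totals, 1 member was called higher and 2 were called lower in TAC Veh when compared with Sham Veh, where 22.5% of all genes tested were called higher and 1.91% lower. The median log2 fold change of the members was −0.00114 against 0.35 over all genes, and 38 of the 78 were positive. With TMM factors no member was called higher and 29 were called lower, against 4.01% and 5.51% of all genes, and the median was −0.33 against 0.01. At an unadjusted p of 0.05 or less limma gave 3 members higher and 10 lower with the deposited totals, against 37.4% and 3.48% of all genes, and 0 higher and 52 lower with TMM factors, against 12.6% and 13.5%. Of the 78 members, 75 had a negative fold change on this scale, and the exceptions were Mrpl53 at 0.01, Mrpl57 at 0.00 and Mrps34 at 0.05, named after their values were seen.

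Both subunits held members called lower with TMM factors, 18 of 49 in the large subunit (median −0.33) and 11 of 29 in the small subunit (median −0.34). Among proteins with a bacterial counterpart 14 of 46 were called lower, and among those found only in mitochondria 15 of 32, with medians of −0.34 and −0.27. The fold changes of the 29 called members ran from −0.70 to −0.35. The number called rested on single libraries, since it was 5 without TAC Veh mouse S2, the lowest of all libraries for 30 members with TMM factors, 13 without TAC Veh S16 and 17 without Sham Veh S6, the highest library for 36 members. Without the 3 libraries with atrial transcripts it was 10, with a median of −0.31, and no member was called with the deposited totals. The animal numbers fall into 4 runs whose meaning the labels do not give, and with this run as a covariate 0 members were called with the deposited totals (Mrpl42 adjusted p = 0.0507) and 19 were called lower with TMM factors. The libraries with atrial transcripts made up the whole of 1 run, which held no TAC Veh or Sham 29P mouse. Run and atrial transcripts are therefore not separate checks.

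**Figure D2:**
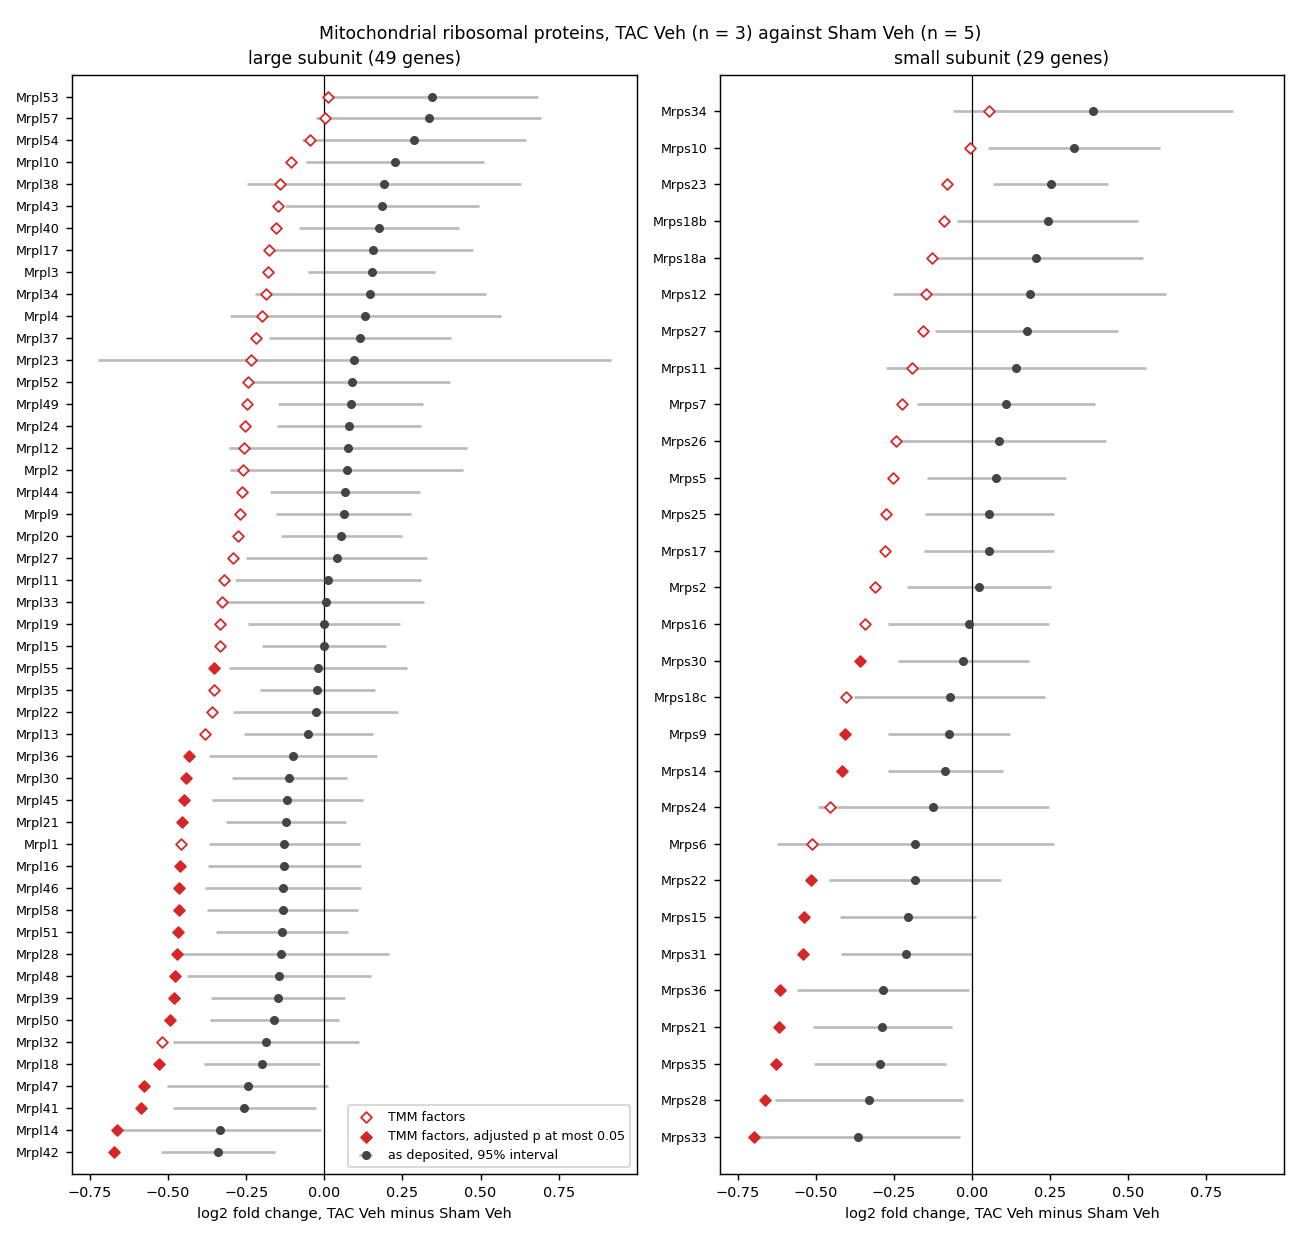
Log2 fold change of each of the 78 members in TAC Veh when compared with Sham Veh (points with 95% confidence intervals, deposited totals; diamonds, TMM factors, filled where adjusted p is 0.05 or less). With the deposited totals the members are spread around 0, with 38 above it, and with TMM factors all but 3 lie below 0, 29 of them called lower.

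Mrpl42 and Mrps35 were the members called lower on both scales. Mrpl42 (chr10:95480805-95501940 on mm10), which encodes a large subunit protein found only in mitochondria, was at 174, 212, 185, 206 and 206 CPM in Sham Veh and at 148, 161 and 157 CPM in TAC Veh. The groups did not overlap. Mrpl42 fell by 0.34 on the log2 scale with the deposited totals (SE 0.09, limma adjusted p = 0.0129) and by 0.67 with TMM factors (adjusted p = 0.00262). The exact two-sided permutation p was 0.0179 on both scales, the smallest that 3 against 5 mice allow. Leaving out 1 library at a time kept the fold change with the deposited totals between −0.38 and −0.31, and the adjusted p rose to 0.0872 without TAC Veh S2. In the 29P groups Mrpl42 was at 174, 157 and 157 CPM in Sham 29P and at 155 to 177 CPM in TAC 29P (median 166 CPM), so that those groups overlapped.

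Mrps35 (chr6:147042764-147073991), which encodes a mitochondria-specific protein of the small subunit, was at 52.5, 55.4, 55.3, 51.9 and 57.7 CPM in Sham Veh and at 42.8, 47.8 and 42.9 CPM in TAC Veh. Every TAC Veh mouse lay below every Sham Veh mouse. Mrps35 fell by 0.29 (SE 0.10, limma adjusted p = 0.0416) with the deposited totals and by 0.63 (adjusted p = 0.00211) with TMM factors. The adjusted p with the deposited totals was above the threshold in some fits, at 0.0690 with only these 2 groups in the fit and at up to 0.169 with a library left out. In Sham 29P Mrps35 was at 56.2, 43.9 and 55.8 CPM, the low value being that of S14, and in TAC 29P at 44.0 to 53.8 CPM (median 46.9 CPM).

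Mrps23 (chr11:88204388-88211507), another mitochondria-specific small subunit gene, was the only member called higher with the deposited totals. It was chosen after its values were seen. Its level was 121, 113, 119, 105 and 130.4 CPM in Sham Veh and 146, 144 and 129.7 CPM in TAC Veh. The lowest TAC Veh mouse lay just below the highest Sham Veh mouse. Mrps23 rose by 0.25 (SE 0.09, limma adjusted p = 0.0446; exact permutation p = 0.0536), and its fold change was −0.08 with TMM factors (adjusted p = 0.57). The call was lost on leaving out any of 6 of the 8 libraries of both groups.

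The largest falls with TMM factors, chosen after their values were seen, were those of Mrps33 (−0.70, limma adjusted p = 0.0401), Mrpl42, Mrpl14 (−0.66, adjusted p = 0.00435) and Mrps28 (−0.66, adjusted p = 0.00215). Mrpl14 encodes the counterpart of bacterial L14, a protein of the interface between the subunits. As deposited, Mrps33 was at 44.7, 68.4, 46.6, 69.3 and 55.3 CPM in Sham Veh and 39.1, 42.7 and 48.9 CPM in TAC Veh, which overlapped. Mrpl14 was at 28.3, 30.6, 30.2, 27.1 and 34.0 CPM in Sham Veh and 24.2, 24.0 and 23.1 CPM in TAC Veh, which did not. Exons of Mrpl14 overlap Tmem63b on the opposite strand, and its count is uncertain for that reason.

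Members with a known special role were mixed. Mrps21, the homologue of S21, fell by 0.62 with TMM factors (limma adjusted p = 0.00319) and stood at −0.29 as deposited (adjusted p = 0.0555). Mrpl58, the peptide release factor that became part of the large subunit, fell by 0.47 (adjusted p = 0.0121), and Mrpl45, which lies at the exit of the peptide tunnel facing the inner membrane, fell by 0.45 (adjusted p = 0.0153). Mrps22, in which variants cause inherited cardiomyopathy, fell by 0.51 (adjusted p = 0.0413). Mrps36, whose product is also known as a part of the 2-oxoglutarate dehydrogenase complex, fell by 0.62 (adjusted p = 0.0288). All of these falls were called with TMM factors only.

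Other members of known role did not pass the test on either scale. Mrpl12, the stalk protein that recruits translation factors, was at 103 ± 13.2 CPM in Sham Veh and 108 ± 12.7 CPM in TAC Veh, with a fold change of 0.08 as deposited and −0.26 with TMM factors (limma adjusted p = 0.238). Mrps12, of the decoding centre, was at 15.4 and 17.4 CPM and at −0.15 with TMM factors (adjusted p = 0.606). Mrpl44, in which variants cause infantile cardiomyopathy, was at 39.9 and 41.5 CPM and at −0.26 (adjusted p = 0.0856). The bacterial S18 is represented by Mrps18a, Mrps18b and Mrps18c, which stood at −0.13, −0.09 and −0.40 with TMM factors and at 0.20, 0.24 and −0.07 as deposited, and none of these was called. Mrps16, the homologue of S16, was at 27.5 and 27.3 CPM and at −0.34 with TMM factors (adjusted p = 0.0534).

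Some members share a locus with genes of other function. Mrpl47 fell by 0.58 with TMM factors (limma adjusted p = 0.00884), and it overlaps Ndufb5, a complex I subunit gene at 273.7 CPM, which fell by 0.63 (adjusted p = 0.00557). Exons of Mrpl47 also overlap Actl6a (16.3 CPM) on the opposite strand. Because strand use in counting is not known, reads of these overlaps cannot be assigned to a single gene. The level of Mrpl47 was 25.1, 22.6, 23.2, 28.4 and 25.1 CPM in Sham Veh and 19.96, 23.5 and 19.5 CPM in TAC Veh, and the groups overlapped by 1 mouse. Mrpl18 overlaps Tcp1 and fell by 0.53 (adjusted p = 0.0107), and Mrpl48 overlaps Rab6a and fell by 0.48 (adjusted p = 0.0321).

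**Figure D3:**
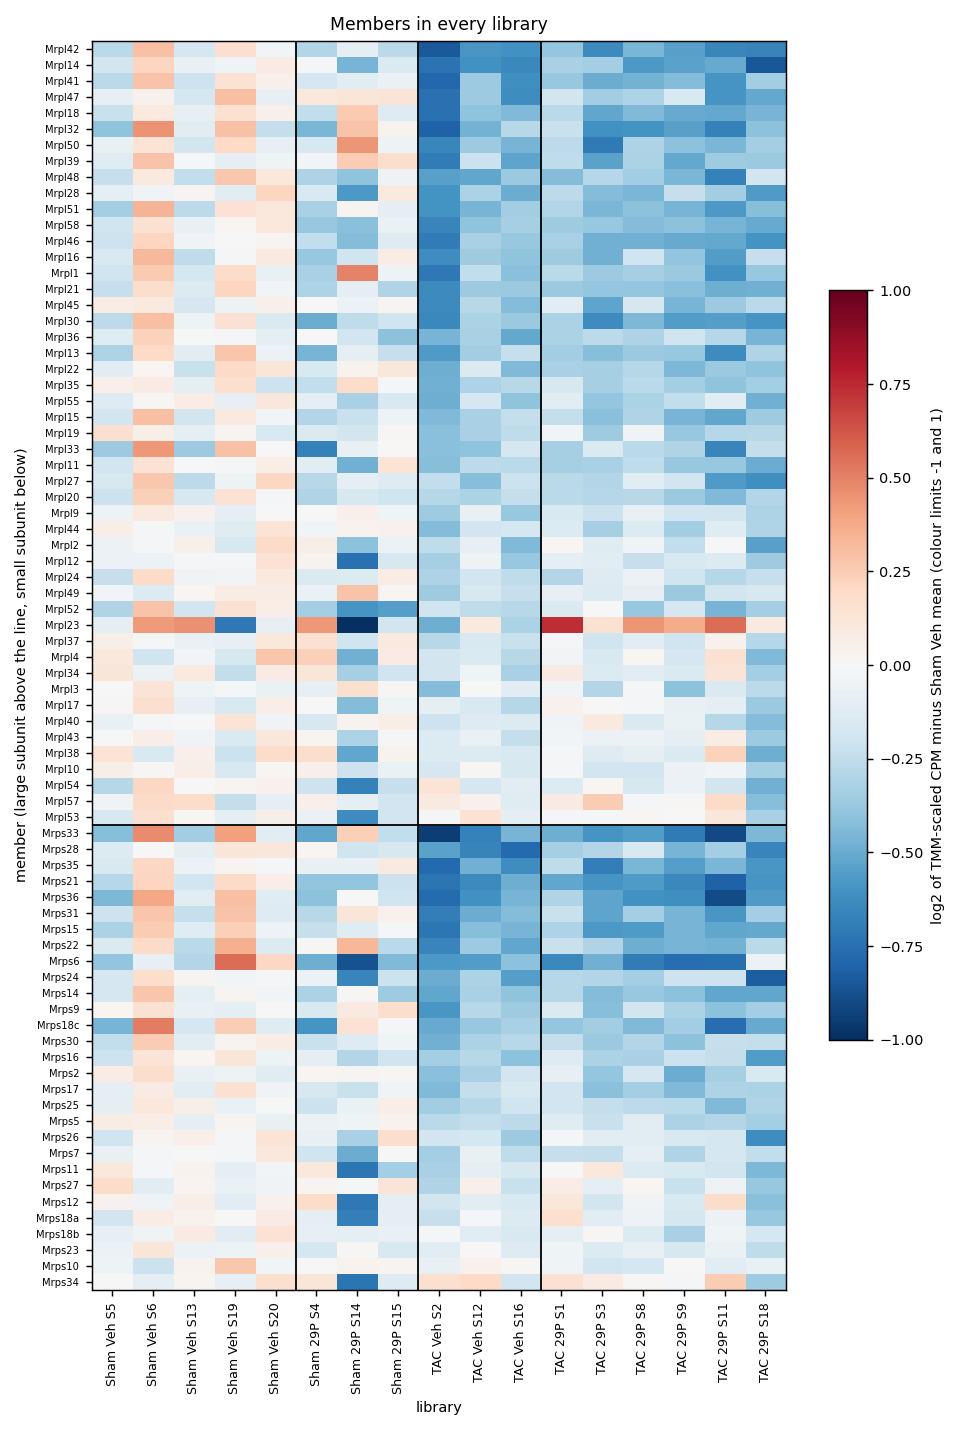
Log2 CPM of every member (lines) in every library (columns) after TMM scaling, minus the Sham Veh mean of that member, with colours capped at 1 log2 unit either way. The TAC Veh columns are mostly below the Sham Veh mean, 75 of the 78 members having a negative mean difference, and Sham 29P mouse S14 is the darkest blue of its group for Mrpl12 and Mrps11.

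Other genes that make or serve the mitoribosome were given from lists chosen with earlier results known, and their counts stand against 5.51% of all genes called lower with TMM factors. With TMM factors 2 of 27 assembly genes were called lower and 0 higher (median −0.33), namely the large subunit assembly factor Malsu1 (−0.62, limma adjusted p = 0.0342) and the rRNA methyltransferase Nsun4 (−0.37, adjusted p = 0.0354). Among 15 translation factors 1 was called lower, the elongation factor Gfm1 (−0.42, adjusted p = 0.0332), and among 11 genes for expression of mitochondrial DNA also 1, Tfb2m (−0.46, adjusted p = 0.0184). Of 20 mitochondrial tRNA synthetases 5 were called lower. Of the 5 mitoribosomal protein genes with another kind of symbol 3 were called lower, Chchd1 (−0.53), Ptcd3 (−0.45) and Dap3 (−0.45). The shares of assembly genes, translation factors and genes for expression of mitochondrial DNA called lower were near that background. With the deposited totals none of these 5 lists held a gene called lower, and 1 synthetase was called higher.

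The median change of the members was smaller in size than that of genes for the respiratory chain and ATP synthase. Among 81 nuclear genes of oxidative phosphorylation 27 were called lower with the deposited totals (median −0.27) and 68 with TMM factors (median −0.60), and the ratio of their sums in TAC Veh to Sham Veh was 0.818 and 0.649. The 13 mitochondrially encoded protein genes had 6 called lower on either scale, with medians of −0.38 and −0.71. Both mitochondrial rRNAs were called lower with medians of −0.88 and −1.21. Messages were isolated on oligo d(T) beads, and these rRNAs together were left at 17.2 to 59.4 CPM per library. Whether their change holds for the rRNA of the mitoribosome was not tested. Cytosolic ribosomal protein genes, 81 of them tested, had 1 called higher and 1 lower with the deposited totals (median 0.08) and 2 called lower with TMM factors (median −0.25). The differences between the lists were not tested.

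Marker lists of the cell types in the tissue were followed in the same comparison. In TAC Veh, 4 of 6 fibroblast markers (median 0.81), 5 of 6 macrophage markers (0.92), 1 of 5 endothelial markers (0.41) and 4 of 4 erythroid markers (1.29) were called higher with the deposited totals, where 22.5% of all genes were called higher with a median of 0.35. With TMM factors the numbers called higher were 2 for fibroblast (median 0.47), 1 for macrophage (0.59), 0 for endothelial (0.08) and 0 for erythroid markers (0.96), against 4.01% of all genes, and at an unadjusted p of 0.05 limma gave 3, 5, 1 and 4. Of the 8 heart muscle markers 1 was called lower with the deposited totals (median −0.26, 6 negative) and 4 with TMM factors (median −0.59, all 8 negative). The mean summed level of the fibroblast list was 1013 CPM in Sham Veh, 777 in Sham 29P, 2113 in TAC Veh and 1858 in TAC 29P. For macrophage markers it was 132, 123, 238 and 207 CPM, for endothelial markers 675, 590, 956 and 967 CPM, and for erythroid markers 1598, 1232, 3760 and 1939 CPM. The part of these cell types in the values of the members was not tested.

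The second comparison set TAC 29P against Sham 29P. Here the direction of the members depended on the scale. With the deposited totals 13 members were called higher and none lower, against 31.4% and 1.12% of all genes, and the median log2 fold change was 0.19 against 0.37. With TMM factors none was called higher and 6 lower, against 5.62% and 5.2% of all genes, and the median was −0.17 against 0.01. No member was called on both scales. At an unadjusted p of 0.05 or less limma gave 24 members higher and 0 lower with the deposited totals, against 43.5% and 1.96% of all genes, and 1 higher and 29 lower with TMM factors, against 15.1% and 14.1%. With the deposited totals the share of members called higher was thus below that of all genes. The summed level was 2897 ± 307 CPM in Sham 29P (2555 to 3148 CPM) and 3255 ± 97.6 CPM in TAC 29P (3107 to 3377 CPM), a ratio of 1.12 with overlap. With TMM factors the ratio was 0.875 and the groups did not overlap (3234 to 3470 CPM and 2766 to 3173 CPM).

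Among the 13 members called higher with the deposited totals were Mrpl23 (1.12, limma adjusted p = 0.0340), Mrps34 (0.63, adjusted p = 0.0303), Mrpl53 (0.62, adjusted p = 0.0102), Mrpl52 (0.61, adjusted p = 0.00807), Mrpl54 (0.57, adjusted p = 0.0182) and Mrps18a (0.56, adjusted p = 0.0172). The other 7 rose by 0.26 to 0.55 and included the stalk gene Mrpl12 and Mrps7, a homologue of the bacterial S7 that organises the head of the small subunit. Mrps34, Mrpl53 and Mrps7 were chosen after their values were seen. Mrpl52 (chr14:54426909-54429756), a mitochondria-specific large subunit gene whose ETS motif lies at its start, was at 13.6, 8.95 and 10.4 CPM in Sham 29P and at 14.5 to 20.7 CPM in TAC 29P (median 16.3 CPM). These groups did not overlap as deposited (exact permutation p = 0.0119, the smallest that 6 against 3 mice allow). With TMM factors its fold change was 0.25 (adjusted p = 0.228).

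The 6 members called lower with TMM factors were Mrpl39 (−0.52, limma adjusted p = 0.0117), Mrpl50 (−0.49, adjusted p = 0.0268), Mrps35 (−0.48, adjusted p = 0.0107), Mrpl47 (−0.47, adjusted p = 0.0243), Mrpl18 (−0.41, adjusted p = 0.0329) and Mrps9 (−0.34, adjusted p = 0.0369). All 6 were chosen after their values were seen and were also called lower with TMM factors in TAC Veh when compared with Sham Veh. The share of members called lower was near the 5.2% of all genes. As deposited, Mrpl39 stood at −0.16 and Mrps35 at −0.11. Mrps9 is the homologue of S9 and Mrpl18 that of L18, a protein of the central protuberance of the large subunit.

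These counts rested on Sham 29P S14. For 70 of the 78 members S14 lay below the member's mean over all libraries with the deposited totals. The median deviation from that mean was −0.35 on the log2 scale. S14 was the lowest of all libraries for 48 members, against 14 with TMM factors. Without S14 the median with the deposited totals was 0.10, none of the members was called higher on that scale and 1 was called lower with TMM factors, and without Sham 29P S4 the numbers were 26 and 14. With TMM factors the deviation of S14 was 0.04. With the run into which the animal numbers fall as a covariate, no member was called in this comparison on either scale.

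The deviation of S14, and that of other libraries, moved with base composition. The members' longest coding transcripts had a GC content of 39.6 to 60.6% (median 50.0%), and S14 deviated by a median of −0.72 for the 26 members of highest GC and −0.13 for the 26 of lowest GC. Spearman's rho between GC content and the deviation of S14 was −0.66 across the 78 members and −0.60 across 13452 genes with a GC value. Across the members rho was also −0.45 in Sham Veh S6, −0.38 in Sham Veh S19 and −0.36 in TAC 29P S18. Among libraries of positive rho, it was 0.41 in TAC Veh S2, 0.43 in TAC 29P S3 and 0.52 in TAC 29P S11. Across the members the rho between GC content and log2 fold change was 0.35 for TAC Veh minus Sham Veh, 0.55 for TAC 29P minus Sham 29P, −0.36 for Sham 29P minus Sham Veh and 0.01 for TAC 29P minus TAC Veh. These are descriptions across genes of the same libraries, which are not independent. Over the 26 members of lowest, the 26 of middle and the 26 of highest GC content the median fold change with the deposited totals was −0.08, 0.02 and 0.10 in TAC Veh minus Sham Veh, and 0.15, 0.20 and 0.34 in TAC 29P minus Sham 29P, where 2, 3 and 8 members were called higher.

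**Figure D4:**
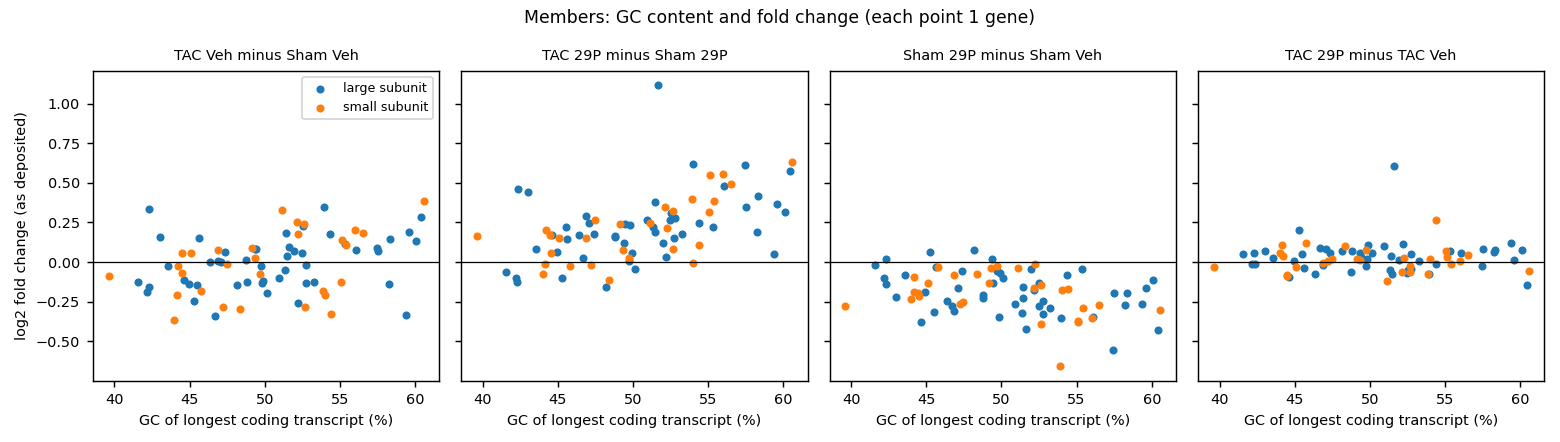
GC content of the longest coding transcript of each member against its log2 fold change with the deposited totals in 4 comparisons (blue, large subunit; orange, small subunit). The points rise with GC in TAC 29P minus Sham 29P (Spearman's rho 0.55), fall in Sham 29P minus Sham Veh (−0.36) and show no slope in TAC 29P minus TAC Veh (0.01).

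The third comparison asked whether 29P changed the members in TAC hearts. No member differed between TAC 29P and TAC Veh at an adjusted p of 0.05, and of all genes tested 0% were called in either direction on either scale. At an unadjusted p of 0.05 limma gave 0 members in either direction with the deposited totals, against 1.05% of genes higher and 0.931% lower, and 1 higher and 0 lower with TMM factors, against 1.52% and 0.931%. The median fold change was 0.02 (0.05 with TMM factors) against −0.02 (0.00) over all genes. Fold changes of the members ran from −0.15 to 0.60. The unadjusted 95% confidence interval of a member reached a median of 0.26 on either side. Smaller differences in such a member were not detectable with 3 and 6 mice, and a call at the adjusted p needed a larger difference. The summed level was 1.01 times that of TAC Veh, or 1.03 times with TMM factors. This comparison shares the TAC Veh mice with the first and the TAC 29P mice with the second.

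The members of smallest unadjusted p were Mrps28, Mrpl47 and Mrpl23 among positive fold changes and Mrpl30, Mrps10 and Mrpl54 among negative ones. Mrps28 (chr3:8802146-8923918) was at 23.3, 21.0, 23.8, 24.3 and 27.7 CPM in Sham Veh, 26.4, 17.7 and 20.5 in Sham 29P, 22.2, 18.4 and 16.9 in TAC Veh and 19.01 to 25.7 in TAC 29P (median 23.1). TAC 29P overlapped with TAC Veh and with Sham Veh. Its fold change was 0.26 (SE 0.14, unadjusted p = 0.0726), and with TMM factors 0.29 (SE 0.11, unadjusted p = 0.0187, adjusted p = 1), the only member under 0.05 on that scale. Mrpl47 stood at 0.21 (unadjusted p = 0.101), with 20.8 to 27.7 CPM in TAC 29P (median 24.7).

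Mrpl23 (chr7:142532686-142540747), whose bacterial homologue sits beside the exit of the peptide tunnel, was counted at under 2.1 CPM in every library. It was at 1.06, 1.24, 1.53, 0.594 and 1.06 CPM in Sham Veh, 1.54, 0.354 and 0.883 in Sham 29P, 1.003, 1.37 and 1.02 in TAC Veh and 1.39 to 2.06 in TAC 29P (median 1.69). All 6 TAC 29P mice lay above the 3 TAC Veh mice as deposited, the lowest by a small margin. The difference was 0.60 with a 95% confidence interval of −0.19 to 1.40 (limma unadjusted p = 0.128; exact permutation p = 0.0119), and the groups overlapped with TMM factors. Its count is uncertain because of the processed copy named above.

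The negative fold changes were smaller. Mrpl30 (chr1:37890477-37898535), the homologue of L30, was at 114, 129 and 124 CPM in TAC Veh and at 110.0 to 124 CPM in TAC 29P (median 112), with a fold change of −0.10 (unadjusted p = 0.273). Mrps10 (chr17:47368887-47381417), the homologue of S10, was at 11.4, 8.31, 11.9, 12.3 and 11.5 CPM in Sham Veh, 11.9, 9.54 and 10.7 in Sham 29P, 14.04, 13.8 and 13.4 in TAC Veh and 11.6 to 13.6 in TAC 29P (median 12.7). All 3 TAC Veh mice lay above all Sham Veh mice for Mrps10, whose fold change there was 0.33 as deposited (limma adjusted p = 0.0718) and −0.01 with TMM factors, and the difference between TAC 29P and TAC Veh was −0.12 (unadjusted p = 0.367). Mrpl54 (chr10:81264713-81266934) was at 15.9, 18.3, 19.2, 17.2 and 19.9 CPM in Sham Veh, 16.97, 9.59 and 14.7 in Sham 29P, 26.7, 19.7 and 20.3 in TAC Veh and 16.2 to 23.8 in TAC 29P (median 19.7). TAC Veh mouse S2 stood above all other mice, and without it the fold change of TAC 29P against TAC Veh was −0.01, from −0.15 with it.

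**Figure D5:**
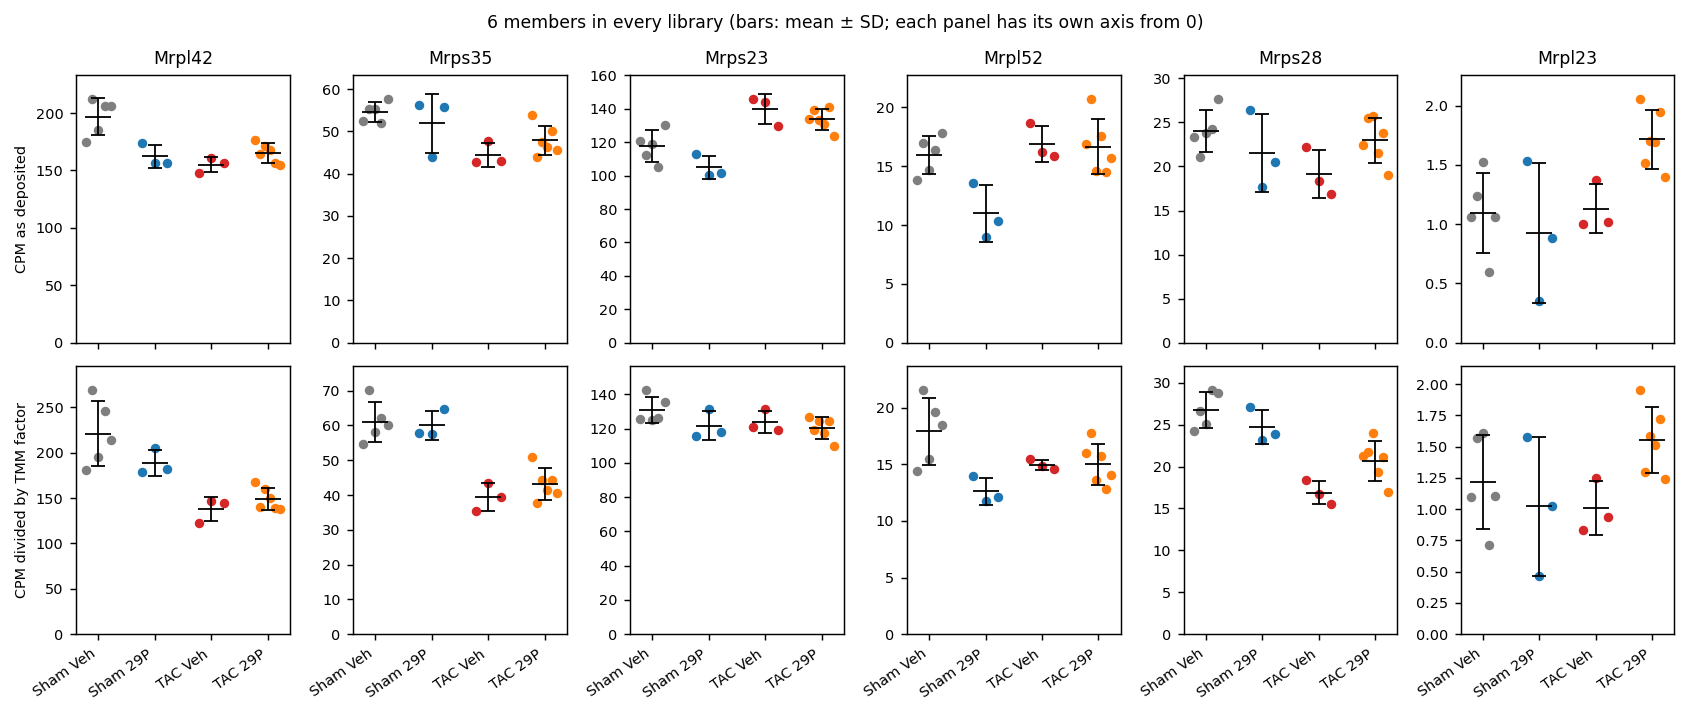
CPM of 6 members in every library by group, as deposited (upper panels) and divided by the TMM factor (lower panels); points are libraries and bars mean ± SD, each panel having its own axis from 0. Mrpl42 and Mrps35 lie lower in TAC Veh than in Sham Veh on both scales without overlap, Mrps23 is higher as deposited only, and Mrpl52 is lowest in Sham 29P.

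The fourth comparison set Sham 29P against Sham Veh, the effect of the drug without pressure overload. No member was called, and 0.00617% of all genes were called in either direction with the deposited totals and again with TMM factors. At an unadjusted p of 0.05 limma gave 0 members higher and 18 lower with the deposited totals, against 1.6% and 5.89% of all genes, and 0 higher and 13 lower with TMM factors, against 3.41% and 5.04%. The median was −0.19 (−0.13 with TMM factors) against −0.06 (0.00) over all genes, and 74 members (64 with TMM factors) had a negative fold change. The summed level of the members was 0.878 times that of Sham Veh without overlap of the libraries, and 0.909 times with overlap after TMM scaling. Without S14 the median with the deposited totals was −0.07.

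The smallest unadjusted p were those of Mrpl30, Mrps21 and Mrpl52, and the first 2 carry the NRF1 motif shown above. Over all 16 members with this motif the median fold change was −0.13 (TMM −0.07), against −0.21 (TMM −0.15) for the 53 without it. Mrpl30 was at 118, 143, 135, 137 and 128 CPM in Sham Veh and at 101.5, 93.9 and 110.3 CPM in Sham 29P. Its groups did not overlap as deposited (−0.38, limma unadjusted p = 0.000468; exact permutation p = 0.0179). With TMM factors the fold change of Mrpl30 was −0.32 and the groups overlapped. Mrps21 was at 75.6, 87.5, 79.4, 91.1 and 96.3 CPM in Sham Veh and at 70.6, 55.3 and 70.9 CPM in Sham 29P. Its groups were also without overlap as deposited (−0.39, limma unadjusted p = 0.00160), and they overlapped with TMM factors (−0.34). In TAC Veh (69.5, 67.3 and 73.8 CPM) and TAC 29P (61.5 to 74.3 CPM, median 69.8) Mrps21 overlapped with Sham 29P and lay below all Sham Veh mice.

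Mrpl52 was at 13.8, 17.005, 14.7, 16.4 and 17.8 CPM in Sham Veh, above all 3 Sham 29P mice, and at 18.7, 16.2 and 15.8 CPM in TAC Veh. Its fold change in Sham 29P minus Sham Veh was −0.55 (limma unadjusted p = 0.00171, TMM −0.50). Adjusted p-values of the members were 0.651 or higher with the deposited totals and 0.588 or higher with TMM factors. The 4 positive fold changes with the deposited totals were those of the large subunit genes Mrpl39 (0.07), Mrpl47 (0.06), Mrpl49 (0.02) and Mrpl50 (0.02). In the same comparison 42 cytosolic ribosomal protein genes were lower at an unadjusted p of 0.05 with the deposited totals (36 with TMM factors), with a median of −0.43 (−0.37), and 27 nuclear oxidative phosphorylation genes (10 with TMM factors) with a median of −0.25 (−0.20).

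The last comparison tested whether the difference between TAC and Sham itself differed between 29P and Veh mice. No member was called for this interaction, and 0.00617% of all genes were called on either scale. At an unadjusted p of 0.05 limma gave 7 members with a positive term and 0 with a negative one, against 1.98% and 0.863% of all genes, and 4 and 0 with TMM factors, against 2.11% and 1.33%. The term was positive for 75 members (74 with TMM factors), with a median of 0.20 (0.17) against 0.04 (0.01) over all genes. It uses the Sham 29P mice, and without S14 the median was 0.09. The smallest unadjusted p were those of Mrpl42 (0.37, unadjusted p = 0.00709, TMM 0.33, unadjusted p = 0.0654) and Mrpl52 (0.53, unadjusted p = 0.0215, TMM 0.49, unadjusted p = 0.0202). As deposited, all Sham 29P mice lay below all Sham Veh mice for both genes, for Mrpl42 by a small margin. With TMM factors the Sham groups overlapped for Mrpl42.

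Median changes were also taken for members with and without an NRF1, ETS or YY1 motif in their promoter window, as a description with no test. With TMM factors the median fold change in TAC Veh minus Sham Veh was −0.34 for the 34 members with at least 1 motif, of which 12 were called lower, and −0.34 for the 35 without, of which 15 were called lower. In Sham 29P minus Sham Veh the medians were −0.09 and −0.14 with TMM factors and −0.15 and −0.20 with the deposited totals. The members with the NRF1 motif shown above differed among themselves, since Mrps21 and Mrpl30 fell by 0.62 and 0.44 with TMM factors and Mrpl12 was not called. Of those shown with the ETS motif, Mrpl18 fell by 0.53 with TMM factors, whereas Mrps18c and Mrpl52 were not called.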

How the data were processed

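The authors deposited CPM per gene for 17 libraries, to which they had added 0.0001. RNA was extracted with TRIzol and chloroform, messages were isolated on oligo d(T) beads and libraries were made with NEBNext Ultra II. Reads were aligned with STAR 2.3.7 in Partek Flow to mm10 with the annotation named as Genocode 25. The counting tool is not given in the sources used here. The authors left out 3 libraries, 2 of low depth and a TAC Veh library that clustered with Sham. As the values could not be turned back into whole reads (80.2 to 83.6% whole at a tolerance of 0.01), no count test was run.

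Genes with CPM of 0.5 or more in at least 3 libraries were tested with limma 3.58.1 (R 4.3.3, trend, 4 group means), on the deposited totals and with TMM factors (trims of 30% and 5%, no weights). The fit and the factors were tested on simulated data. Exact permutation tests, sequences and figures used scipy 1.17.1, pandas 2.3.3, matplotlib 3.10.9 and numpy 2.4.6 in Python 3.11.15. Alternatives were other scalings, filters, constants (0.1 and 1) and thresholds, fits of 2 groups, a covariate for the 4 runs into which the animal numbers fell, and libraries left out.

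Members and gene lists were chosen with earlier results of these data known. Members were named by their calls on both scales in TAC against Sham, the smallest unadjusted p in the comparisons of 29P with Veh and the interaction, the highest and lowest levels per kb, and a list of known roles. Other names were chosen after their values were seen.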

Additional observations from a re-analysis of the deposited data

Results flagged for a closer look

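In groups of 4 to 10 mice a library was listed where its gap to its neighbour was large for the range of the group by Dixon's test. This was met in 6 of 76 checks, and chance gives about 1 in 20 groups. Mrpl17 was at 30.9 CPM in TAC 29P mouse S18, away from the other 5 mice of its group. Mrpl18 was at 95.5 CPM in TAC 29P mouse S1. Mrpl49 was at 25.4 CPM in TAC 29P mouse S9. Mrpl50 was at 49.7 CPM in TAC 29P mouse S3. Mrps10 was at 8.31 CPM in Sham Veh mouse S6. The summed level of the 78 members was 3572 CPM in Sham Veh mouse S20, which also held atrial transcripts.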

How the results depend on the processing

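Over 506 combinations of a result and an alternative, direction and call were kept. In TAC Veh minus Sham Veh (1 member higher and 2 lower with the deposited totals), the numbers were 0 and 29 with TMM factors, 0 and 28 with median-of-ratios factors, 0 and 10 with totals without mitochondrially encoded genes, 3 and 10 at an unadjusted p of 0.05, 0 and 1 with a fold limit of 0.3, 0 and 1 with only the 2 groups in the fit, 0 and 0 with the number run (the run into which an animal number fell) as a covariate, 0 and 0 without the libraries with atrial transcripts, and 0 higher without a filter. Leaving out 1 library gave 0 to 1 higher and 0 to 5 lower. With TMM factors 19 were lower with the number run, 10 without the atrial libraries (chosen after seeing the data) and 5 to 37 with 1 library left out (also chosen after seeing the data). In TAC 29P minus Sham 29P (13 higher and 0 lower), the numbers were 0 and 6 with TMM factors, 0 and 6 with median-of-ratios factors, 2 and 2 without mitochondrially encoded genes, 24 higher unadjusted, 5 with only the 2 groups and 0 with the number run, and 0 to 26 with 1 library left out (0 without Sham 29P S14, 7 without S15, 5 without S3, 8 without S9, 6 without S11). With TMM factors 0 were lower with the number run, and leaving out 1 library gave 0 to 1 higher and 1 to 14 lower (1 without S14, 3 without S15, S3 or S11). At an unadjusted p of 0.05, 18 members were lower in Sham 29P minus Sham Veh and 7 had a positive interaction. Mrpl42 in TAC Veh minus Sham Veh had adjusted p of 0.0507 with the number run and 0.0560 without the atrial libraries. The sign turned for Mrpl30 in TAC 29P minus TAC Veh with TMM factors and the number run (0.041), and with 1 library left out for Mrpl47 (−0.021 to 0.15) and Mrpl49 (−0.059 to 0.065) in Sham 29P minus Sham Veh. The cause was not tested for any of these changes. No paired analysis was possible because the replicate numbers in the labels are unique to each library. Depth was estimated from the values, and intervals cover the spread between mice.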

Other observations

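In TAC 29P minus Sham 29P, 37 of 81 cytosolic ribosomal protein genes tested were called higher with the deposited totals (median 0.41), against 31.4% of all genes and a median of 0.37, and 1 was called higher and 1 lower with TMM factors (median 0.05), against 5.62% and 5.2% of all genes and a median of 0.01. Of the nuclear oxidative phosphorylation genes 2 were called higher and 1 lower with the deposited totals (median 0.02) and 26 lower with TMM factors (median −0.35), and of the 13 mitochondrially encoded protein genes 8 and 9 were called lower (medians −0.43 and −0.80). The NRF1 motif was found in 14.5% of the promoter windows of cytosolic ribosomal protein genes and 29.4% of those of nuclear oxidative phosphorylation genes, the ETS motif in 19.4% and 7.35%, and the YY1 motif in 6.45% and 10.3%.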
